A study of Drosophila melanogaster with 2 samples.

Results

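The 36 genes described here run the cell cycle of Drosophila melanogaster: 16 act in DNA replication, 9 in the step from G1 into S phase and 11 in mitosis. They were listed by name, and each was searched for peaks of the zinc-finger protein D19B, against 13968 protein-coding genes in all. A gene counted as having a peak at a transcription start site (TSS) when a peak summit lay within 500 bp of any of its annotated TSSs. A summit inside the gene or within 2 kb of it, but not within 500 bp of one of its TSSs, counted as a peak elsewhere. Of the 36 genes, 7 (19.4%) had a peak at a TSS, against 15.3% of all protein-coding genes. A peak elsewhere was found for 9 of the 36 (25.0%), against 20.4% of all protein-coding genes. The 7 genes with a TSS peak were Mcm2, dpa and RnrS for replication, Cdk4 and Dp for G1/S, and Cdk1 and aurA for mitosis.

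All data came from 1 group with 2 chromatin immunoprecipitation libraries, labelled biological replicates 2 and 3. Both were made from whole embryos of 0 to 24 h, of mixed sex, from 1 transgenic line that stably expresses D19B with GFP at its C terminus. The label of the precipitation names anti-GFP, while a second label gives D19B as the antibody. Chromatin of all cells and all embryonic stages was pooled, so a peak in a few cells and a weak peak in many cannot be told apart, and no untagged or other embryos were compared. With 1 group there was no comparison between samples and no test, and each count is set beside the same count over all protein-coding genes.

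D19B belongs to the zinc-finger proteins with a zinc-finger-associated domain (ZAD), a large family in insects. Cells license origins in G1, when the origin recognition complex, Cdc6 and Cdt1 load the Mcm helicase. Cyclin-dependent kinases then fire the origins, and E2F with its partner Dp drives transcription of replication genes, which Rbf holds back. In the fly embryo, the first divisions run on maternal products, string (stg) then times mitosis in each region, and most cells later leave the cycle or enter endocycles, in which the genome is copied without division.

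Sequence is shown at the summits of 3 TSS peaks, each between 2 genes that point away from each other, and of 4 intronic peaks in the regulators CycE and E2f1. Each run holds the summit and 50 bp on each side of it, from the RefSeq genome assembly of release 6 (dm6 coordinates), written 5′ to 3′ on the strand of the named gene. Capitals mark a match to 1 of the 8 short words searched on both strands, which here were TTTGAA and TATAAA and, at the second E2f1 peak shown, ACAGGGTA.
Mcm2, chr3R:8264810-8264910, plus strand: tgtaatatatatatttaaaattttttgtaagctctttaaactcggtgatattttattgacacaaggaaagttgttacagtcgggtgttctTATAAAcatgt
Cdk1, chr2L:10386443-10386543, minus strand: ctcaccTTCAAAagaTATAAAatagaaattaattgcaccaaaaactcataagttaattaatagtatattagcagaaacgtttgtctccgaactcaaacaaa
aurA, chr3R:11963022-11963122, plus strand: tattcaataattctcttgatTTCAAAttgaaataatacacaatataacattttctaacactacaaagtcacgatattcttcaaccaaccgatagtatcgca
CycE, taller peak, chr2L:15747063-15747163, minus strand: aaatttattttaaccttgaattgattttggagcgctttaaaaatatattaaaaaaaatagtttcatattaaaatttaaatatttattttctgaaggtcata
CycE, lower peak, chr2L:15747272-15747372, minus strand: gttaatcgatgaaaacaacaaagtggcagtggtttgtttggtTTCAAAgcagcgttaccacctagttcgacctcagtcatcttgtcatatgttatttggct
E2f1, tallest peak, chr3R:21659117-21659217, minus strand: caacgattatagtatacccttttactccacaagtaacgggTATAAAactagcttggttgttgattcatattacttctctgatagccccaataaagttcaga
E2f1, next peak, chr3R:21651325-21651425, minus strand: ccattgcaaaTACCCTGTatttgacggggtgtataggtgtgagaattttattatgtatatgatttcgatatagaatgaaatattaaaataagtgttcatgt
GC content ran from 16.8% at the taller CycE summit to 40.6% at the lower one, with 26.7% at Mcm2 and 27.7% at both Cdk1 and aurA. The median over all 24 summit windows of the 36 genes was 32.7%, against 32.7% over all 4309 peaks.

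The 4309 peaks are those that the authors kept from both libraries together by their irreproducible discovery rate (IDR), a measure of how well replicate rankings match. They are exactly the 4309 of highest signal among the 30000 regions listed for both libraries together, background regions included. Signal is the authors' value for a region, and how it was computed is not stated in the sources used here. Ranks count from the highest signal of a list. The IDR list spanned signals of 117.1 to 15870 with a median of 199.5. Each library also had its own list of 30000 regions, whose signals are not scaled to each other. A summit of replicate 2 or 3 was matched to an IDR summit within 100 bp. Of the 24 peaks at the 36 genes, 22 had a matching summit in replicate 2 and 24 in replicate 3. Over all 4309 IDR peaks, 145 had no matching summit in replicate 2 and 440 had none in replicate 3. The ratio of replicate 2 to replicate 3 at the 22 matched in both ran from 0.561 to 3.62 with a median of 1.9, beside a median of 1.91 over 3734 IDR peaks with both summits. The ratio could not be had for the TSS peaks of Mcm2 and aurA, which had no matching replicate 2 summit.

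**Figure D1:**
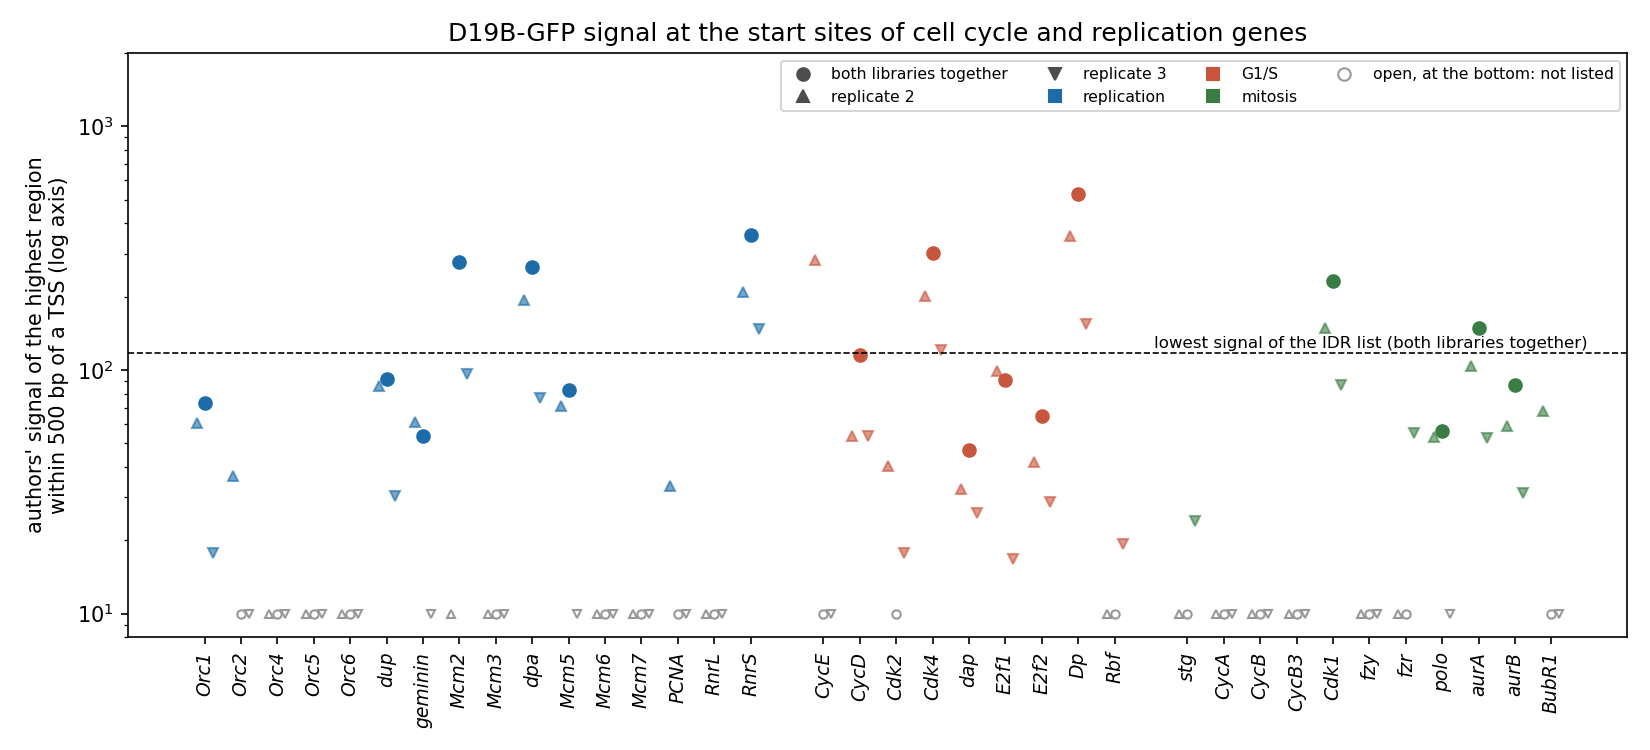
Authors' signal (log axis) of the highest listed region within 500 bp of a TSS for each of the 36 genes, in both libraries together (circles), replicate 2 (upward triangles) and replicate 3 (downward triangles), with open symbols at the bottom where no region is listed. Of the circles, 7 lie above the dashed line at 117.1, the lowest signal of the IDR list, and CycD lies just under it at 115.6.

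Among the replication genes, 3 of 16 (18.8%) had a peak at a TSS, and these were 2 of the 6 Mcm helicase subunits and 1 of the 2 subunits of ribonucleotide reductase. Mcm2 encodes a subunit of the Mcm helicase. Its peak at chr3R:8264771-8264961 had its summit 110 bp upstream of the TSS, with a signal of 278.3 (rank 1407). In replicate 3 the summit lay at the same base with a signal of 96.25 (rank 1415), whereas the replicate 2 list used here held 0 regions within 3 kb of the Mcm2 TSS. That list had no summit over a stretch of 66.8 kb around the gene, in which replicate 3 listed 8 regions and both libraries together 5. Whether the replicate 2 list is complete there is not known, so the missing region is not evidence of a lower signal in replicate 2. Over the whole IDR list, 145 of the 4309 peaks (3.37%) had no replicate 2 summit within 100 bp. The summit lies in the 519 bp between Mcm2 and RPA1, which point away from each other. RPA1 encodes the large subunit of the protein that coats single-stranded DNA at forks, and its TSS was 409 bp away.

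The gene dpa, which encodes Mcm4, had a peak at chr2R:7499961-7500097 with a signal of 265.6 (rank 1489), 194 in replicate 2 and 76.66 in replicate 3. Its summit was 104 bp upstream of an inner TSS of dpa, inside the 5′ UTR of a longer transcript, and 166 bp from the TSS of didum, a myosin gene on the opposite strand. A further peak 336 bp past the end of dpa had a signal of 171.2 (rank 2659), and it sat 19 bp from the TSS of the neighbour CG1620. RnrS encodes the small subunit of ribonucleotide reductase, which makes deoxyribonucleotides. Its peak at chr2R:11985459-11985710 was the tallest of the replication class at a TSS. The signal was 359.2 (rank 940), with 209.4 in replicate 2 and 146.6 in replicate 3, and the summit was 174 bp upstream of the TSS. Both subunit genes had a peak nearby, but that of RnrL, the large subunit, was not at its TSS. It lay 1745 bp past the end of the gene at chr2L:10323035-10323488, with a signal of 1003 (rank 166), the tallest of the 24 peaks. Replicate 2 gave 769.2 there and replicate 3 gave 238.6. This summit was 179 bp from the TSS of CG5381 and 205 bp from that of CG4995, so it is a TSS peak of neighbours of RnrL.

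PCNA encodes the sliding clamp of DNA polymerase. It had no TSS peak, and the nearest peak was 1103 bp upstream with a signal of 208.8 (rank 2029), 115.2 in replicate 2 and 82 in replicate 3. That summit was 7 bp from the TSS of RpS18, a cytoplasmic ribosomal protein gene, and 302 bp from that of plu, which acts on the cell cycle of the early embryo. The other 11 replication genes had no peak of either kind. None of the 5 origin recognition genes had one, and neither did dup (Cdt1, which loads the helicase) or geminin, its inhibitor. The highest of these below the IDR list were dup with a signal of 92.07 (rank 5742) and Mcm5 with 82.7 (rank 6569). For dup the libraries gave 85.86 in replicate 2 and 30.27 in replicate 3, while Mcm5 had 71.42 in replicate 2 and no region in replicate 3. In the list of both libraries, 4 of the 16 had a region below the IDR list at a TSS, with signals of 53.36 to 92.07, and 9 had no listed region there.

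**Figure D2:**
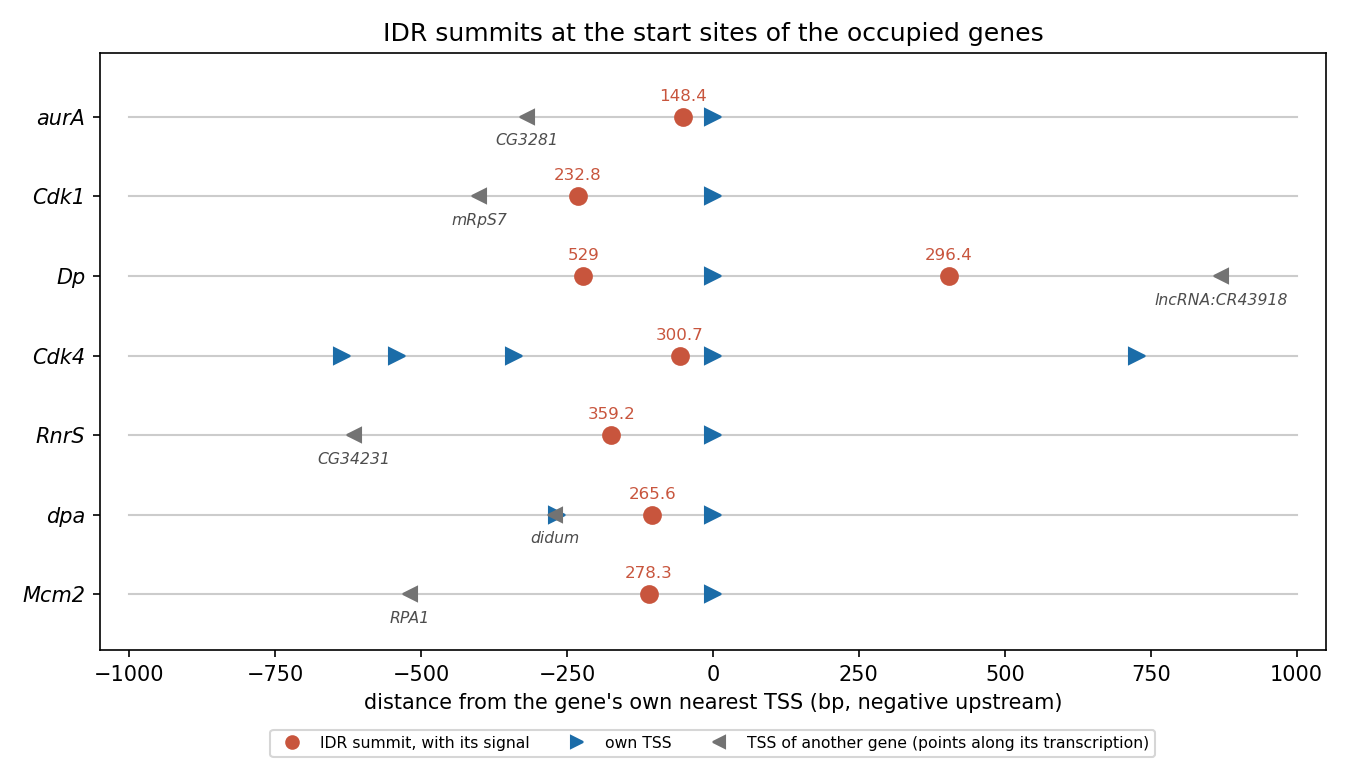
Position of IDR summits around the TSS of the 7 genes with a TSS peak, in bp along the direction of each gene, with the gene's own TSSs and the TSSs of other genes marked. Every tallest summit lies 52 to 231 bp before the nearest own TSS, and 5 of the 7 have a gene on the opposite strand within 500 bp. By another measure, a protein-coding neighbour that points away within 1 kb, the count is also 5 of the 7, against 1175 of all 2133 protein-coding genes with a TSS peak. In the dpa row the outer TSS of dpa and the TSS of didum overlap.

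Among the G1/S genes, 2 of 9 (22.2%) had a TSS peak and 4 of 9 (44.4%) a peak elsewhere. Either kind was found for 5 of 9 (55.6%), against 30.6% of all protein-coding genes. It was found for 5 of 16 replication genes (31.2%), 4 of 11 mitosis genes (36.4%) and 14 of the 36 (38.9%). The G1/S genes are longer, with a median of 4.39 kb against 2.16 kb, and the part of gene length in the share was not tested. Dp, the common partner of both fly E2F proteins, had the tallest TSS peak of the 36 genes. At chr2R:13223232-13223503 its signal was 529 (rank 509), with 355.2 in replicate 2 and 154.8 in replicate 3. The summit was 222 bp upstream of an internal TSS that starts 1158 bp into the gene, and so it lies in an intron of the longer transcript. A second Dp summit 626 bp farther on had a signal of 296.4 (rank 1281), 210.5 in replicate 2 and 79.04 in replicate 3. It was 404 bp past the same TSS, still in an intron, and 467 bp from the TSS of the noncoding gene lncRNA:CR43918.

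Cdk4, the kinase partner of cyclin D, had its TSS peak in an intron as well. At chr2R:16579946-16580154 the signal was 300.7 (rank 1251), ranked 1203 in replicate 2 and 999 in replicate 3. The summit was 57 bp upstream of an internal TSS 636 bp into the gene, and no other gene started within 500 bp. Lower peaks flanked it, one 559 bp upstream of the gene with a signal of 132.1 and one in an intron with 149. The tallest TSS peaks of Dp and Cdk4 were thus both nearest to an internal TSS, and over 500 bp from the first TSS of the gene. At Cdk4, the TSSs 0.094 and 0.295 kb into the gene were also within 500 bp of the summit. That peak cannot be assigned to 1 of these TSSs.

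CycE and E2f1 had peaks in introns and none at a TSS. Cyclin E is the partner of Cdk2 that starts S phase. Its taller peak, at chr2L:15746937-15747141, had a signal of 437.2 (rank 698), with 283.3 in replicate 2 and 152.8 in replicate 3. The lower one, 209 bp away, had 225.7 (rank 1803), with 197.4 in replicate 2 and 82.25 in replicate 3. The taller summit was 503 bp upstream of an internal TSS of CycE, just outside the window that defines a TSS peak, and in replicate 2 the summit fell inside it at 490 bp. The next distances outside the window were 537 bp at fzr and 559 bp at Cdk4, and the farthest inside it was the second Dp summit at 404 bp.

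E2f1 encodes the activating E2F of the fly. It held 4 intronic peaks over 40.6 kb, with signals of 281.5, 259.6, 234.7 and 134.7. All 4 were listed in both libraries, at 77.14 to 152.7 in replicate 2 and 50.16 to 125.9 in replicate 3, and the 3 tallest lay 1704 to 9496 bp from the first TSS. Of the 1672 protein-coding genes of 10 to 50 kb, 4.78% held at least 4 summits and 19% at least 2, the number in CycE. The median number in these 1672 genes was 0 summits and their median length 18 kb, against 40.6 kb for E2f1 and 20.6 kb for CycE. The gene fzr, of 12.2 kb, held 1 summit, and 40.3% of the 1672 held at least 1. Per 10 kb, E2f1 had 0.986 summits and CycE 0.972, against 0.366 for all summits in the 1672 genes over their summed length.

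E2f2 encodes the repressive E2F, which acts in the dREAM complex with Dp and Rbf. Its peak was 1932 bp upstream with a signal of 283.8 (rank 1365), 181.6 in replicate 2 and 93.24 in replicate 3. That summit was 70 bp from the TSS of Coq3 and 166 bp from that of Pld3. The remaining 4 genes, CycD, Cdk2, dap and Rbf, had no peak. CycD, which encodes the cyclin partner of Cdk4, came closest, with a signal of 115.6 (rank 4363), 53.62 in replicate 2 and 53.63 in replicate 3. The gene dap, a Cdk inhibitor that stops the embryonic cycle, had 46.91 (rank 15120) and lay 121 kb from the nearest IDR summit, the farthest of the 22 genes with no peak.

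**Figure D3:**
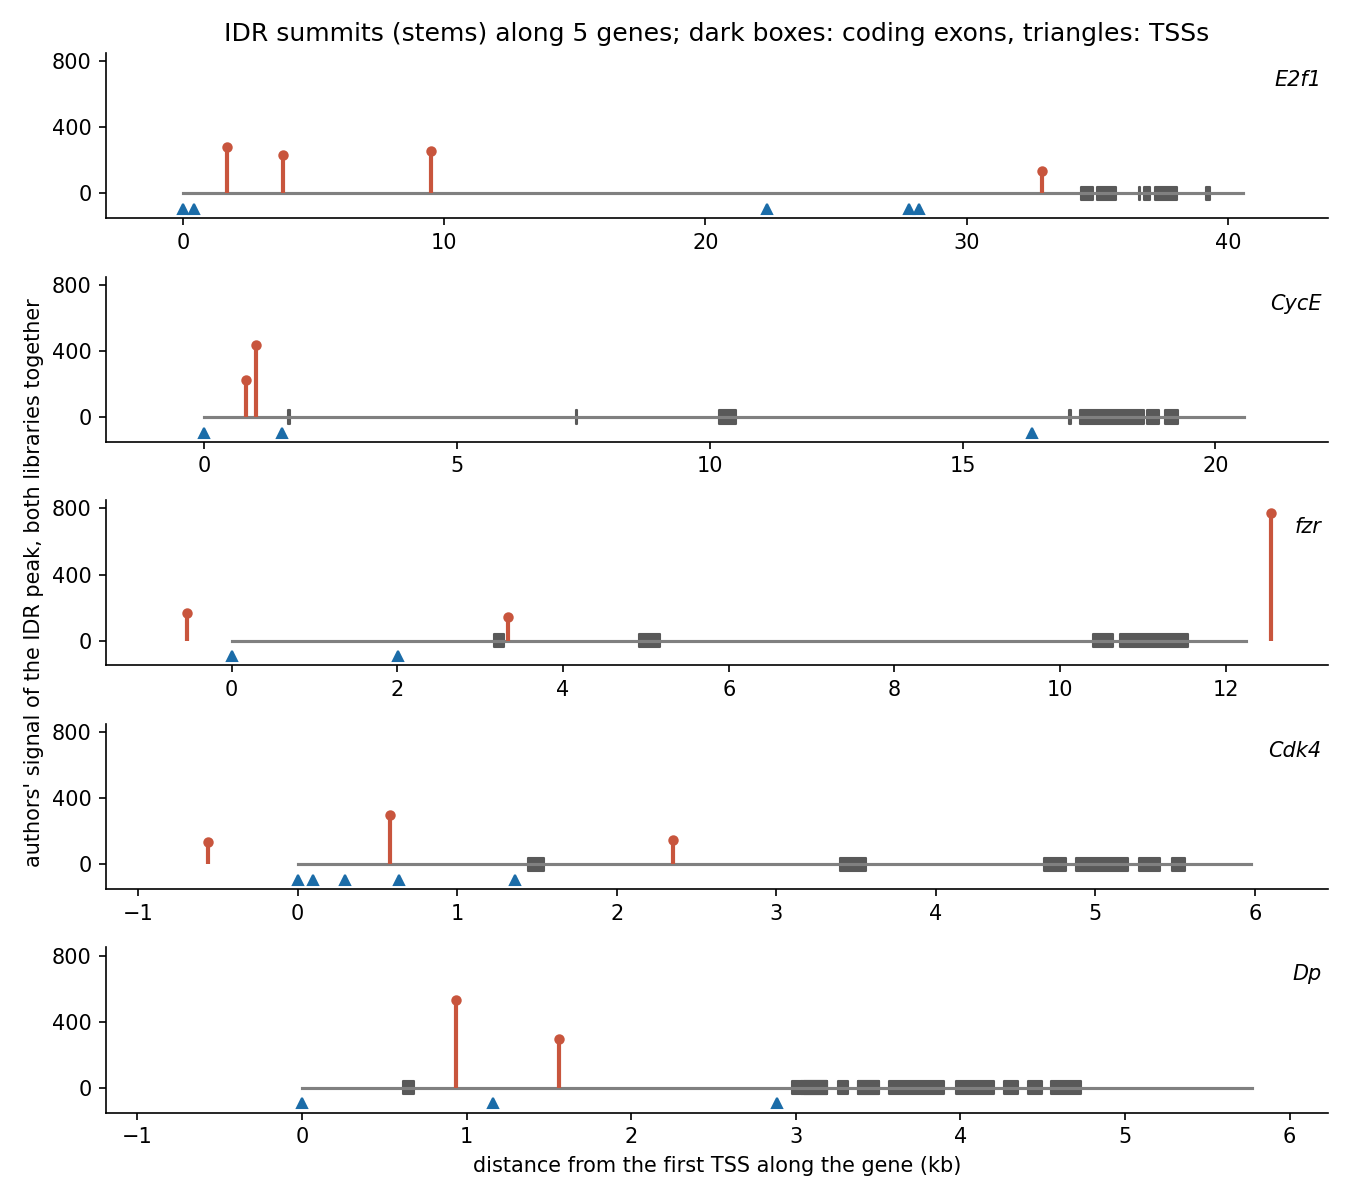
IDR summits along E2f1, CycE, fzr, Cdk4 and Dp, the genes with summits in introns. The horizontal axis is the distance in kb from the first TSS along the gene, the height of a stem is the authors' signal in both libraries together, boxes are coding exons and triangles are TSSs. E2f1 holds 4 intronic summits of 134.7 to 281.5 and fzr a summit of 773 past its end.

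Among the mitosis genes, 2 of 11 (18.2%) had a TSS peak and 2 of 11 (18.2%) a peak elsewhere. Cdk1, the kinase that drives entry into mitosis, had a peak at chr2L:10386278-10386707 with a signal of 232.8 (rank 1743), 148.9 in replicate 2 and 86.47 in replicate 3. The summit lay between Cdk1 and mRpS7, a mitochondrial ribosomal protein gene on the opposite strand, 231 bp from Cdk1 and 169 bp from mRpS7. It was the only one of the 7 that was nearer to another gene's TSS. The kinase gene aurA, which acts at centrosomes and spindles, had the lowest TSS peak, at chr3R:11962857-11963286. Its signal was 148.4 (rank 3186), and replicate 3 gave 52.79 with a summit within 100 bp. Replicate 2 had its highest region within 500 bp of the TSS at 103.7 (rank 3031), but with the summit over 100 bp from the IDR summit. CG3281 started 267 bp away on the opposite strand.

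CycB encodes the B-type cyclin that binds Cdk1. Its peak, 562 bp past the end of the gene at chr2R:22802789-22803133, had a signal of 730.4 (rank 302), with 485 in replicate 2 and 242.8 in replicate 3. No other gene started within 500 bp, and the nearest was blw at 3860 bp. The gene fzr encodes the Cdh1 activator of the anaphase-promoting complex, which is needed for exit into endocycles. Its tallest peak, at chrX:4666823-4667163, had a signal of 773 (rank 275), with 473.3 in replicate 2 and 296.1 in replicate 3. It lay 295 bp past the end of fzr and 295 bp from the TSS of CG3009. A second fzr peak had a signal of 168.8 at 537 bp upstream, and one in an intron had 143.7. The intronic one gave 53.27 in replicate 2 and 94.89 in replicate 3, the only peak of the 22 that was higher in replicate 3.

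The other 7 mitosis genes had no peak: stg, CycA, CycB3, fzy, polo, aurB and BubR1. In the list of both libraries, the highest regions among them were at aurB with a signal of 86.64 (rank 6193), and at polo with 56.01 (rank 11446). aurB had 58.9 in replicate 2 and 31.11 in replicate 3, while polo had 53.15 in replicate 2 and no region in replicate 3. In replicate 2 alone the highest was at BubR1, a spindle checkpoint gene, with 67.89 (rank 5307), and BubR1 had no listed region at a TSS in replicate 3 or in both libraries together. The string phosphatase gene stg, which times the embryonic mitoses, had no listed region at a TSS in both libraries together or in replicate 2, and one of 24.04 in replicate 3. Of the 5 genes of the CycE, CycD, CycA, CycB and CycB3 cyclins, none had a TSS peak and CycE and CycB had a peak elsewhere.

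The shares of genes with a TSS peak were 18.8% for replication, 22.2% for G1/S and 18.2% for mitosis, against 15.3% of all protein-coding genes. These shares depend on the library for G1/S and mitosis. Without replicate 3 the counts were 3 of 16 for replication, 4 of 9 for G1/S and 2 of 11 for mitosis. The share of all protein-coding genes was then 16.3%. Without replicate 2 the counts were 3 for each class, and the share of all protein-coding genes was 12.8%. Replication kept its count without replicate 3 because dup joined as Mcm2 left. In classes of this size 1 gene moves the share by several points, and no difference between the classes was tested. With regions of any rank counted, 17 of the 36 genes (47.2%) had one within 500 bp of a TSS in the list of both libraries, against 39.6% of all protein-coding genes. By class these were 7 of 16 for replication (43.8%), 6 of 9 for G1/S (66.7%) and 4 of 11 for mitosis (36.4%). The 22 genes with no peak of either kind had their nearest IDR summit at 3.76 to 121 kb from a TSS with a median of 16.4 kb, against a median of 15.1 kb over 9677 protein-coding genes with no peak.

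**Figure D4:**
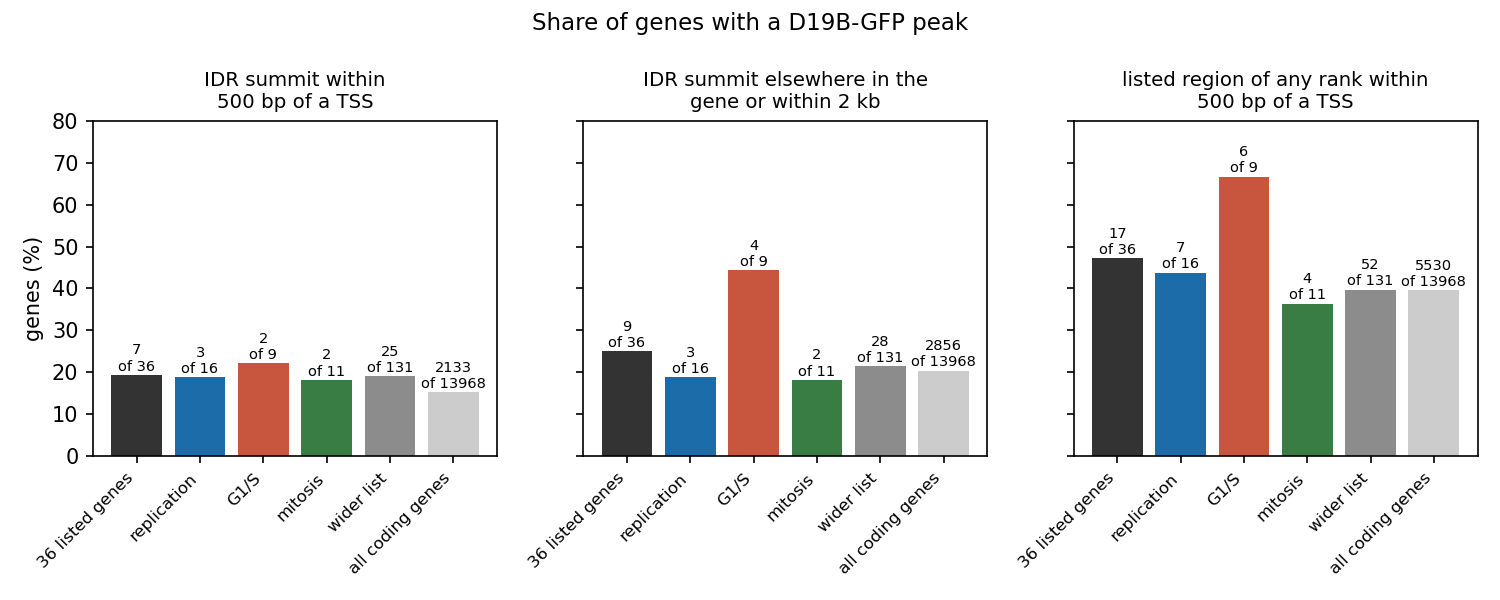
Share of genes (%) with an IDR summit within 500 bp of a TSS, with one elsewhere in the gene or within 2 kb, and with a listed region of any rank within 500 bp of a TSS, for the 36 genes, their 3 classes, the wider list of 131 pathway genes and all 13968 protein-coding genes. The 36 genes stand at 19.4%, 25.0% and 47.2%, against 15.3%, 20.4% and 39.6% of all protein-coding genes.

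The side of the TSS and the neighbouring genes were not used in the search. In each of the 7 genes the tallest TSS summit was upstream of the nearest TSS of the gene, as in 86.8% of the 2133 protein-coding genes with a TSS peak. Within the window of 500 bp that the search set, the distance had a median of 110 bp, against 177 bp over those genes. The signal had a median of 278.3, against 224.5. In the wider list of 131 genes, the 25 with a TSS peak had medians of 187 bp and 217.5. In 5 of the 7, all but Cdk4 and Dp, a gene on the opposite strand started within 500 bp of the summit. The same 5 had a protein-coding neighbour that points away within 1 kb. Of the 2133 protein-coding genes with a TSS peak, 1175 had such a neighbour. Of the 36 genes, 16 (44.4%) had a protein-coding neighbour that points away from them within 1 kb, against 34.7% of all protein-coding genes, and 5 of these 16 (31.2%) had a TSS peak. Among all 4841 protein-coding genes with such a neighbour the share was 24.3%, and among the 83 of the wider list it was 22.9%. Of the 36 genes, 20 had no such neighbour, and 2 of these (10%) had a TSS peak. The share was 10.5% of all protein-coding genes without such a neighbour, and 12.5% of those in the wider list. By class, 9 of 16 replication genes, 1 of 9 G1/S genes and 6 of 11 mitosis genes had such a neighbour, while in the wider list described next 14 of 24 G1/S genes (58.3%) had one. A peak in a shared promoter cannot be assigned to either gene from these lists.

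The peaks elsewhere fell into a few kinds of place. Of the 16 peaks in 9 genes, 5 were within 500 bp of the TSS of another gene, namely those past the ends of dpa, RnrL and fzr and those upstream of PCNA and E2f2. The other 11 were over 500 bp from any TSS, of which 8 were in introns of the gene and 3 were outside it. The same split over all protein-coding genes is not given here. The median signal of the 16 was 230.2, and that of the 8 TSS peaks was 287.4, the second Dp peak included.

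A wider list of 131 genes of the same pathways gave 25 with a TSS peak (19.1%), against 15.3% of all protein-coding genes, and 28 with a peak elsewhere (21.4%), against 20.4%. By class, 5 of 36 replication genes (13.9%), 8 of 24 G1/S genes (33.3%) and 12 of 71 mitosis genes (16.9%) had a TSS peak. The G1/S class of this list was drawn broadly, and its 8 genes included BEAF-32, tefu, lok and p53. The peak of lok (151.7) was also counted for barr in mitosis. The median length of the 24 G1/S genes was 3.75 kb, against 2.16 kb over all protein-coding genes, and the part of length was not tested. In replication, the highest signals were at RPA1 (278.3, the peak shared with Mcm2), Cdc7 (240.1), chif (205.1) and Top1 (156.3). Cdc7 and chif encode the kinase that fires origins and its activating subunit, and Top1 a topoisomerase. The Cdc7 summit was 7 bp from the TSS.

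In G1/S the tallest of the wider list was at lin-52, a dREAM subunit, with a signal of 561.4 and a summit 472 bp upstream of the TSS, near CG15771. Dref, which encodes the factor that binds the DNA replication-related element, followed with 327.7 at 57 bp upstream. The p53 gene had 258.2 at 26 bp upstream, and mip130, another dREAM gene, had 221.9. In mitosis the tallest were at pav, a kinesin of cytokinesis, with 477.7, at Cdc16, a subunit of the anaphase-promoting complex, with 334.5, at the centriole kinase gene SAK with 318.2 and at the spindle gene tacc with 291.5. Another gene also started within 500 bp of the summits at Cdc7 (CG3226), Dref (RpL13), mip130 (Edem1), Cdc16 (orb) and SAK (Cdk12). Of these 12 genes of highest signal, all but RPA1 had a matching summit within 100 bp in replicates 2 and 3. They were picked for high signal in both libraries together, so this is no separate support. Among the lower TSS peaks of the wider list, SMC2 and pnut had no matching summit in replicate 2. Septin2 had none in replicate 3.

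Short words were counted at the summits and in the promoters, on both strands. Some are known from promoters of these pathways, while no such link is claimed for ACAGGGTA and TATAAA. The DRE word TATCGATA, which Dref and BEAF-32 bind, was in 0 of the 24 summit windows (50 bp on each side), against 0.998% of all IDR windows. It was in the promoters (250 bp before to 50 bp after the outermost TSS) of 6 of the 36 genes (16.7%), against 9.36% of all protein-coding promoters. These 6 were BubR1, Cdk2, CycA, Orc2, Orc5 and PCNA, and none of them had a TSS peak. Over all protein-coding promoters with this word, 19.4% had one.

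At least one of 4 E2F words (TTTCCCGC or TTTCGCGC or TTTGCCGC or TTTGGCGC) was in 11 of the 36 promoters (30.6%), against 6.41% of all protein-coding promoters. They were 10 replication genes and stg, and 2 of the 11, Mcm2 and RnrS, had a TSS peak. Over all protein-coding promoters with an E2F word, 16.4% had one. Only promoters of outermost TSSs were searched. The TSS peaks of dpa, Cdk4 and Dp were nearest to inner TSSs, 268, 636 and 1158 bp into the gene. Words at those inner TSSs were thus largely outside the search. At the summits, an E2F word was in 1 of the 24 windows, TTTGGCGC at dpa, against 0.58% of all IDR windows for that word. The most frequent word at the summits was TTTGAA, the core of the cell cycle homology region, in 7 of 24 windows (29.2%), against 16.7% of all IDR windows. It was seen at the TSS peaks of Cdk1 and aurA and at peaks elsewhere of CycB, CycE, RnrL and fzr. Its matches at Cdk1, aurA and the lower CycE peak are the capitals TTCAAA in the runs above. TTTGAA was in 19 of the 36 promoters (52.8%), against 40.7% of all protein-coding promoters. Of these 19 genes, 2 had a TSS peak. Over all protein-coding promoters with TTTGAA, 14.8% had one, against 15.3% of all protein-coding genes. TATAAA was in 4 windows (16.7%), against 22.5%, and ACAGGGTA in 1 (4.17%), the E2f1 window shown, against 2.97%. With 100 bp on each side of the summit, TTTGAA was in 11 windows (45.8%), against 30.4%, and TATAAA in 9 (37.5%), against 37%. TTTGGCGC was then in 2 windows, both of dpa. A match describes the letters in these windows, and binding to it was not measured.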

How the data were processed

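Per the labels, whole D19B-GFP embryos gave 2 precipitated libraries (biological replicates 2 and 3) of 1 group. The authors deposited region lists on dm3 and dm6, and the dm6 lists were used. Signal, the authors' value for a region, is not scaled between libraries, and the control library is not analysed here. The authors also deposited a −log10 q per region, which entered no result. The sources used here name no aligner, caller or IDR threshold. Read depth is unknown, so no interval is given.

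Summits were placed against genes of Ensembl release 115 (dm6 coordinates, transposable elements left out) in Python 3.11.15 with numpy 2.4.6 and matplotlib 3.10.9. Sequence came from the RefSeq release 6 assembly. The wider list had 146 symbols, of which 11 matched by an older symbol, 11 repeated a listed gene and 4 matched none. The 36 genes and all lists and words were chosen with earlier results of these data known. Genes were named by rule: all with a peak, the best ranked 2 of each class without one, and the 4 of highest signal per class of the wider list. stg, BubR1 and the genes listed at words or as having no peak were named beyond it, after their values were seen. So were BEAF-32, tefu, lok, barr, SMC2, pnut and Septin2 of the wider list. Gene counting was tested on simulated data. Alternatives were other TSS windows, flanks and summit windows, the 2154 tallest peaks, each library alone, and summits found in both libraries.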

Additional observations from a re-analysis of the deposited data

How the results depend on the processing

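Of the 36 genes, 7 had a TSS peak, and the alternatives gave 5 to 9. The all-gene share of 15.3% became 9.26% with a TSS window of 200 bp and 8.93% with the 2154 tallest peaks. It became 10.2% with the setting of summits in both libraries. That setting kept 2762 peaks, fewer than the 3734 with both summits within 100 bp. Under these 3 settings the 36 genes gave 5, 6 and 5, the wider list gave 14, 14 and 16 instead of 25, and mitosis gave 1 each instead of 2. G1/S gave 1 at 200 bp instead of 2. Taking 1 library alone, with its 4309 highest regions, gave 9 genes either way. Without replicate 2, CycD and fzr joined (12.8% of all genes). Without replicate 3, dup, CycE and E2f1 joined (16.3% of all genes), and Mcm2 left, in a stretch where the replicate 2 list may be incomplete. With 1 library alone, G1/S ranged over 3 to 4 and mitosis over 2 to 3, and replication kept a count of 3. A window of 1000 bp added CycE and fzr (18.3% of all genes). Peaks elsewhere were found for 18 genes instead of 9 with a flank of 5 kb (36.6% of all genes) and for 6 with 1 kb (13.4%). No paired analysis was possible because the series has 1 group and no test. The cause of these differences was not tested beyond the construction of each setting, and unknown depth limits what a missing region means.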
